A study of Zea mays with 18 samples.

Results

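Genes whose transcripts were at least doubled at low nitrate in the roots of zmnrl1-m, and not raised in B73 or ZmNRL1-OE, numbered 35 of the 41632 genes counted. They were chosen from the measured responses. Counts were divided by the library total to give CPM, the share of a gene in its library on a common scale, averaged over 3 libraries, and R was taken as log2((mean CPM at low nitrate + 1)/(mean CPM at high nitrate + 1)) in each genotype. A gene belonged to the set when R was at least 1 in zmnrl1-m and at most 0.2 in both B73 and ZmNRL1-OE. A gene with almost no counts in B73 or ZmNRL1-OE also met that limit, because the added 1 holds its R near 0. The responses below therefore describe the choice, and counts of calls on them restate it and support nothing. Of 434 genes with R of at least 1 in zmnrl1-m, 68 had R of at most 0.2 in B73 and 66 in ZmNRL1-OE.

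The libraries came from roots of seedlings aged 10 days that had been kept for 48 h in Hoagland-type solution with 0.15 mM (low) or 15 mM (high) nitrate. B73 is the inbred line to whose genome the reads were assigned, zmnrl1-m is labelled a mutant and ZmNRL1-OE an overexpression line, and each genotype had 3 libraries at each nitrate level. The labels state neither how the lines were made, nor their genetic background, nor the number of plants in a library. They do not say that replicates came from separate plantings, so p-values measure the spread between these libraries, which may be technical.

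Nitrate is both the main nitrogen source of maize and a signal. Roots short of it typically raise high-affinity nitrate transporters and carriers that recycle nitrogen, and lower the enzymes that reduce and assimilate nitrate. ZmNRL1 is presented by the series title as a positive regulator of the nitrogen stress response. The set asks which transcripts rose at low nitrate in the line labelled zmnrl1-m while meeting the limit of the rule in B73 and ZmNRL1-OE. A link of these transcripts to ZmNRL1 was not tested. The files give gene identifiers without names, and 0 of the 41632 identifiers, the 35 included, were found in the RefSeq table at hand. No function, position or sequence is therefore given for any gene, root markers were not tested, and the level of ZmNRL1 itself was not analysed here.

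Total counts lay between 21905877 and 39003607 per library, and all 35 genes passed the filter on low counts that left 27134 genes for testing. The pair of B73 libraries with replicate number 1 stood apart. In B73, 10 genes were at 5 CPM or more in both of these libraries and under 0.5 CPM in the other 4 B73 libraries, while 0 genes were so for number 2 or number 3. One of the 35 genes, Zm00001d039947, was among the genes with this pattern. With both left out, an alternative added once the data had been seen, 40 genes met the rule and 34 of the 35 were among them.

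R in zmnrl1-m, bounded from below by the rule and damped by the added 1 CPM in genes of low level, had a median of 1.21 and ran from 1.004 to 1.61 on the log2 scale, while over the 24883 genes with a group mean of at least 1 CPM its median was 0.00. Fitted log2 responses there, which do not use that added value, ran wider, from 1.03 in Zm00001d049597 to 2.77 in Zm00001d008194 and 3.14 in Zm00001d005715, the last pair named after their values were seen. In ZmNRL1-OE the fitted response of Zm00001d005715 was larger, 3.51, from 4 counts at low and 0 at high nitrate. It was not called there, and the added 1 CPM held its R at 0.06. Zm00001d008194 stood at 0.706, 7.25 and 1.07 CPM at low nitrate in zmnrl1-m. Without replicate 2 of these libraries it did not meet the rule. In B73 the 35 genes had a median R of -0.10 (-1.16 to 0.20), with 22 genes between -0.2 and 0.2 and 13 lower. In ZmNRL1-OE the median was -0.18 (-0.96 to 0.14), with 19 genes between -0.2 and 0.2 and 16 lower. R was under 0 in both of these genotypes in 18 genes, and under -0.2 in both in 8. The same rule with the genotypes exchanged found 12 genes with a rise in B73 alone and 21 with a rise in ZmNRL1-OE alone. Its mirror image found 81 genes with R of at most -1 in zmnrl1-m alone.

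**Figure D1:**
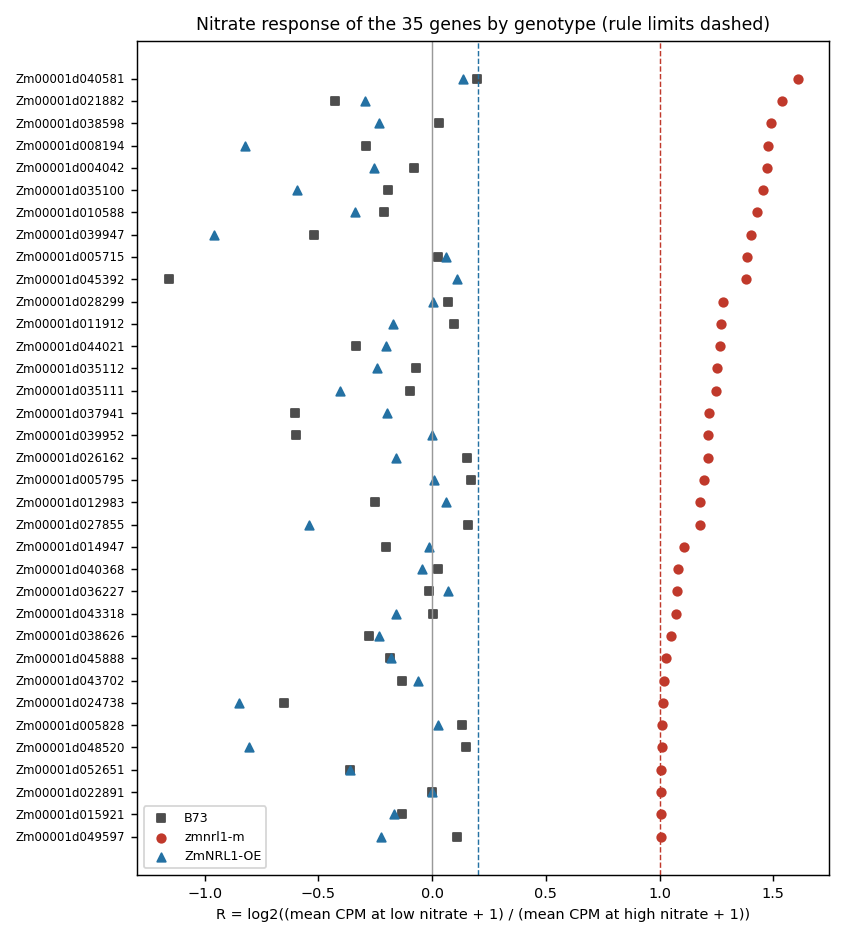
R (log2, horizontal axis) of each of the 35 genes (vertical axis, ordered by R in zmnrl1-m) in B73 (squares), zmnrl1-m (circles) and ZmNRL1-OE (triangles), with the limits of the rule dashed. The circles lie between 1.004 and 1.61, and the lowest square is at -1.16.

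Zm00001d040581 had the highest R in zmnrl1-m. Its 3 low-nitrate libraries of zmnrl1-m stood at 213, 132 and 213 CPM, and the high-nitrate libraries at 64.4, 42.4 and 74.0 CPM. The corresponding values were 121, 93.0 and 93.2 against 59.6, 92.6 and 115 CPM in B73, and 108, 49.7 and 91.2 against 65.7, 97.8 and 62.6 CPM in ZmNRL1-OE. The nitrate levels were thus separated without overlap in zmnrl1-m and overlapped in both other genotypes. R was 1.61 in zmnrl1-m, 0.20 in B73 and 0.14 in ZmNRL1-OE, so that the gene was also close to the upper limit of 0.2 in B73, and it no longer met the rule when any of 6 libraries of B73 or ZmNRL1-OE was left out.

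Zm00001d038598 followed among the genes of at least 5 CPM whose zmnrl1-m libraries did not overlap. It stood at 167, 124 and 201 CPM under low and at 65.4, 35.1 and 72.99 CPM at high nitrate in zmnrl1-m, an R of 1.49. In B73 it was at 97.2, 81.1 and 72.1 CPM under low and 43.2, 107 and 95.4 CPM at high nitrate, and in ZmNRL1-OE at 140, 54.3 and 115 CPM against 111, 152 and 102 CPM. High-nitrate replicate 1 of B73 and low-nitrate replicate 2 of ZmNRL1-OE were the lowest libraries of their genotypes.

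Zm00001d014947 had the highest mean CPM of the set. It reached 242, 184 and 304 CPM at low nitrate in zmnrl1-m and 130, 91.8 and 116 CPM at high nitrate. B73 had 138 ± 24.5 CPM under low and 159 ± 39.7 CPM at high nitrate, and ZmNRL1-OE 150 ± 47.8 and 151 ± 15.5 CPM (SD, n = 3). Per unit of gene length the order of the genes was another one. On the authors' FPKM scale Zm00001d021882, which was chosen for mention after its values were seen, had the highest level of the set in zmnrl1-m, a mean of 505 FPKM at low and 169 FPKM at high nitrate. Its CPM libraries there overlapped, with 32.7, 96.9 and 75.45 CPM under low and 13.7, 33.9 and 20.95 CPM at high nitrate.

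Zm00001d012983 and Zm00001d028299 are described because they had the smallest p for the difference in response between zmnrl1-m and B73, a difference that the rule itself selected, so that this p supports nothing. Zm00001d012983 stood at 26.0, 25.01 and 23.1 CPM at low nitrate in zmnrl1-m and at 9.64, 10.2 and 11.3 CPM at high nitrate. All 12 libraries of B73 and ZmNRL1-OE lay between 6.497 and 9.51 CPM, under every library of zmnrl1-m.

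Zm00001d028299 was at 34.4, 37.0 and 53.9 CPM at low nitrate in zmnrl1-m and at 17.0, 15.4 and 17.6 CPM at high nitrate. B73 had 16.8 ± 1.498 CPM under low and 16.0 ± 3.06 CPM at high nitrate, and ZmNRL1-OE 14.0 ± 0.777 and 14.0 ± 0.278 CPM (SD, n = 3). In this gene the high-nitrate libraries of zmnrl1-m were at the level of B73, and the low-nitrate libraries were above all others.

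**Figure D2:**
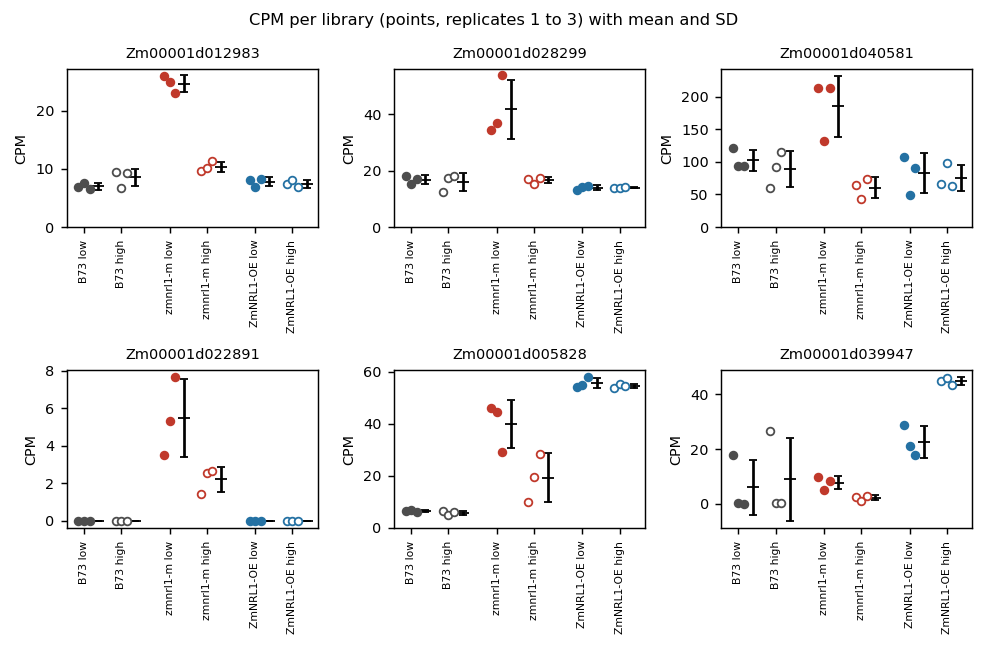
CPM in each library (points, filled at low and open at high nitrate, replicates 1 to 3 from left to right) with the mean and SD of 3 libraries for 6 genes, 1 panel each with its own axis. In Zm00001d012983 the low-nitrate libraries of zmnrl1-m lie at 23.1 to 26.0 CPM and all libraries of B73 and ZmNRL1-OE under 10.

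The lowest R in B73 and ZmNRL1-OE, among genes of at least 5 CPM there, were those of 3 genes. Zm00001d045392 had 9.78, 8.51 and 12.5 CPM under low and 16.8, 19.6 and 36.0 CPM at high nitrate in B73, an R of -1.16 with no overlap. Its zmnrl1-m libraries overlapped, with 8.11, 22.2 and 30.8 CPM under low and 6.11, 3.39 and 12.1 CPM at high nitrate, an R of 1.38.

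Zm00001d024738 had the second lowest R in both genotypes among genes of at least 5 CPM there. In ZmNRL1-OE it was at 10.7, 3.57 and 4.47 CPM under low and 11.9, 15.1 and 9.14 CPM at high nitrate, an R of -0.85, with overlap between the levels. In B73 it was at 3.52 ± 0.941 CPM under low and 6.09 ± 2.55 CPM at high nitrate, and in zmnrl1-m at 4.28 ± 1.09 and 1.61 ± 0.573 CPM (SD, n = 3).

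Zm00001d039947 had the lowest R in ZmNRL1-OE, -0.96, with 28.8, 21.2 and 17.7 CPM under low and 45.0, 46.1 and 43.3 CPM at high nitrate. The levels did not overlap there, nor in zmnrl1-m, with 9.69, 5.003 and 8.16 CPM under low and 2.62, 1.16 and 3.01 CPM at high nitrate. In B73 the gene was at 17.7 and 26.5 CPM in the libraries numbered 1 at low and high nitrate and at 0.0787 to 0.179 CPM in the other 4. Its R of -0.52 in B73 rests on that pair, and without high-nitrate replicate 1 of B73 the gene did not meet the rule.

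The next counts were set largely by the choice of genes and are no evidence for it. The nitrate response of zmnrl1-m was called (adjusted p under 0.05, edgeR's quasi-likelihood test with Benjamini-Hochberg adjustment over 27134 genes) in 28 of the 35 genes, all higher at low nitrate, where 8.89% of all genes tested were called higher. The libraries of the 2 nitrate levels did not overlap in 29 of the 35 (17.1% of all genes). The 7 genes that were not called include Zm00001d021882 and Zm00001d010588, whose zmnrl1-m libraries overlapped, and Zm00001d039947, whose zmnrl1-m libraries did not overlap and whose B73 libraries differed widely. The fit shares 1 estimate of spread over all groups. Without high-nitrate replicate 2 of zmnrl1-m, 17 genes were called. The share of all genes called with a library left out is not given, so such counts do not say whether a loss of calls is particular to the 35 genes. None of the 35 was called in B73 (14.7% of all genes called) or ZmNRL1-OE (23.9%), where 3 and 5 had an unadjusted p under 0.05 with edgeR and DESeq2 called 0 and 2. With the replicate number as a block, 1 gene, Zm00001d045392, was called in B73. With single libraries left out, 1 gene was called in B73 without its low-nitrate replicate 1 or its high-nitrate replicate 2. In ZmNRL1-OE, 3 were called without its own low-nitrate replicate 1, 2 without low-nitrate replicate 3 of zmnrl1-m, and 1 without replicate 1 or 2 there.

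The rule requires R in zmnrl1-m to exceed R in each other genotype by at least 0.8. Differences in R were therefore fixed in direction and least size by the choice. The fitted differences below, without the added 1 CPM, were largely set by it too and support nothing. On that scale Zm00001d005715 went the other way against ZmNRL1-OE, with a difference of -0.36 from 4 counts at low and 0 at high nitrate there. The difference between the nitrate response of zmnrl1-m and that of B73 was called larger in 16 of the 35 genes (3.84% of all genes), and the difference from ZmNRL1-OE in 20 (9.70%). In 12 genes both were called (2.81% of all genes), and in 11 neither (share of all genes not counted). The median difference over the 35 genes was 1.52 against B73 and 1.54 against ZmNRL1-OE on the log2 scale, beside -0.01 and -0.00 over all genes tested. Both differences use the same zmnrl1-m libraries. Against B73, the difference was called in 6 genes without low-nitrate replicate 2 or 3 of B73, 9 without its high-nitrate replicate 2 and 7 without its high-nitrate replicate 3, and, for libraries of zmnrl1-m, in 6 without replicate 3 at low nitrate and in 6 without replicate 2 at high nitrate. Against ZmNRL1-OE it was called in 11 genes without either of those libraries of zmnrl1-m, in 10 without low-nitrate replicate 3 and in 12 without high-nitrate replicate 1 of ZmNRL1-OE. The shares of all genes called in these rounds are not given either, so the same limit holds.

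How far the response recurred in libraries that had not been used to choose genes was read by leaving out the 6 libraries of 1 replicate number. The rule was applied to the other 12 libraries and R was then computed from the 6 left out. Without number 1 the rule chose 81 genes. Their median R in zmnrl1-m was 1.17 in the libraries used and 0.60 in those left out. There, R was above 0 in 65 of the 81 (80.2%, beside 46.3% of all genes) and at least 1 in 17. In the left-out libraries of B73 and ZmNRL1-OE the median R of these genes was 0.20 and 0.12, R was above 0 in 49 and 53 of the 81 (60.5% and 65.4%, beside 52.5% and 53.1% of all genes), and 7 of the 81 met the whole rule.

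Without number 2 the rule chose 38 genes, with a median R in zmnrl1-m of 1.184 in the libraries used and 0.90 in those left out. In the left-out libraries R in zmnrl1-m was above 0 in 32 of the 38 (84.2%, beside 55.9% of all genes) and at least 1 in 17. R was above 0 in B73 in 13 and in ZmNRL1-OE in 16 (34.2% and 42.1%, beside 52.2% and 57.1% of all genes), and 11 met the whole rule. Without number 3 it chose 27 genes, with medians of 1.14 and 0.94. Here R in zmnrl1-m was above 0 in 26 of the 27 (96.3%, beside 47.0% of all genes) and at least 1 in 12. R was above 0 in B73 in 8 and in ZmNRL1-OE in 12 (29.6% and 44.4%, beside 53.0% and 49.4% of all genes), and 10 met the whole rule. The share of all genes that met the whole rule in left-out libraries was not counted. Over all genes with at least 1 CPM at low nitrate in zmnrl1-m in the libraries used, 22812 to 22950 in number, the median left-out R in zmnrl1-m was -0.02, 0.04 and -0.03, and 2.07%, 2.88% and 2.05% had R of at least 1. The genes chosen thus kept a positive median response in zmnrl1-m in each round, smaller than in the libraries that chose them, and a minority of them met the whole rule again. Without number 1 the left-out medians of B73 and ZmNRL1-OE were positive as well, at 0.20 and 0.12, so in that round a rise was not confined to zmnrl1-m. Of the 35 genes, 32, 17 and 17 were chosen without number 1, 2 and 3.

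**Figure D3:**
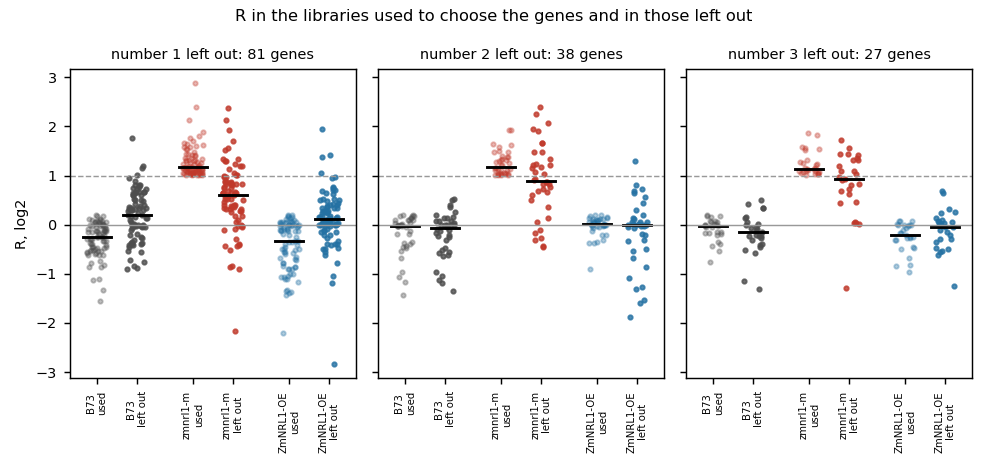
R (log2) of the genes chosen without replicate number 1, 2 or 3 (panels), in the libraries used to choose them and in the 6 libraries left out, by genotype, with the median as a black bar. In zmnrl1-m the left-out medians are 0.60, 0.90 and 0.94, under the medians of 1.17, 1.184 and 1.14 in the libraries used.

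Many of the 35 genes deviated from their group mean in the same libraries. Since each library enters the group means that the rule used, these deviations are in part a product of the choice and are given as a description. In high-nitrate replicate 2 of zmnrl1-m, log2(CPM + 1) was below the group mean in 28 of the 35 genes, with a median deviation of -0.36, where 50.03% of the genes with a group mean of at least 1 CPM were below. In low-nitrate replicate 3 of zmnrl1-m, 28 were above, with a median of 0.28 (41.0% of genes above), and in high-nitrate replicate 3, 32 were above, with 0.22 (50.4%). In high-nitrate replicate 1 of B73, 25 of the 35 were below, with a median of -0.24 (40.3% of genes below). The low values in replicate 2 at high nitrate and the high values in replicate 3 at low nitrate both enlarge R in zmnrl1-m. Without the first of these libraries 34 genes met the rule, 23 of the 35 among them, and without the second 23 genes met it, 20 of the 35 among them. Other deviations reduce R in zmnrl1-m. They are the high values in replicate 3 at high nitrate and low values in replicate 2 at low nitrate (22 of the 35 below, median -0.14, 33.6% of genes below). Without these libraries 41 and 42 genes met the rule. Without replicate 1 of zmnrl1-m at low or at high nitrate, 46 and 49 genes met it. What sets these libraries apart was not tested.

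Zm00001d035100, Zm00001d035111 and Zm00001d035112, chosen for mention after their values were seen because their identifiers are close in number, show this pattern. In zmnrl1-m at high nitrate Zm00001d035112 stood at 9.82, 2.63 and 6.85 CPM, Zm00001d035111 at 4.07, 1.25 and 2.97 CPM and Zm00001d035100 at 3.67, 0.580 and 1.92 CPM, with replicate 2 the lowest in each. At low nitrate in ZmNRL1-OE they stood at 19.5, 5.79 and 7.18 CPM, at 12.2, 3.22 and 5.81 CPM and at 7.93, 1.65 and 3.66 CPM, with replicate 1 the highest in each. Whether these genes share reads through similar sequence was not tested.

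**Figure D4:**
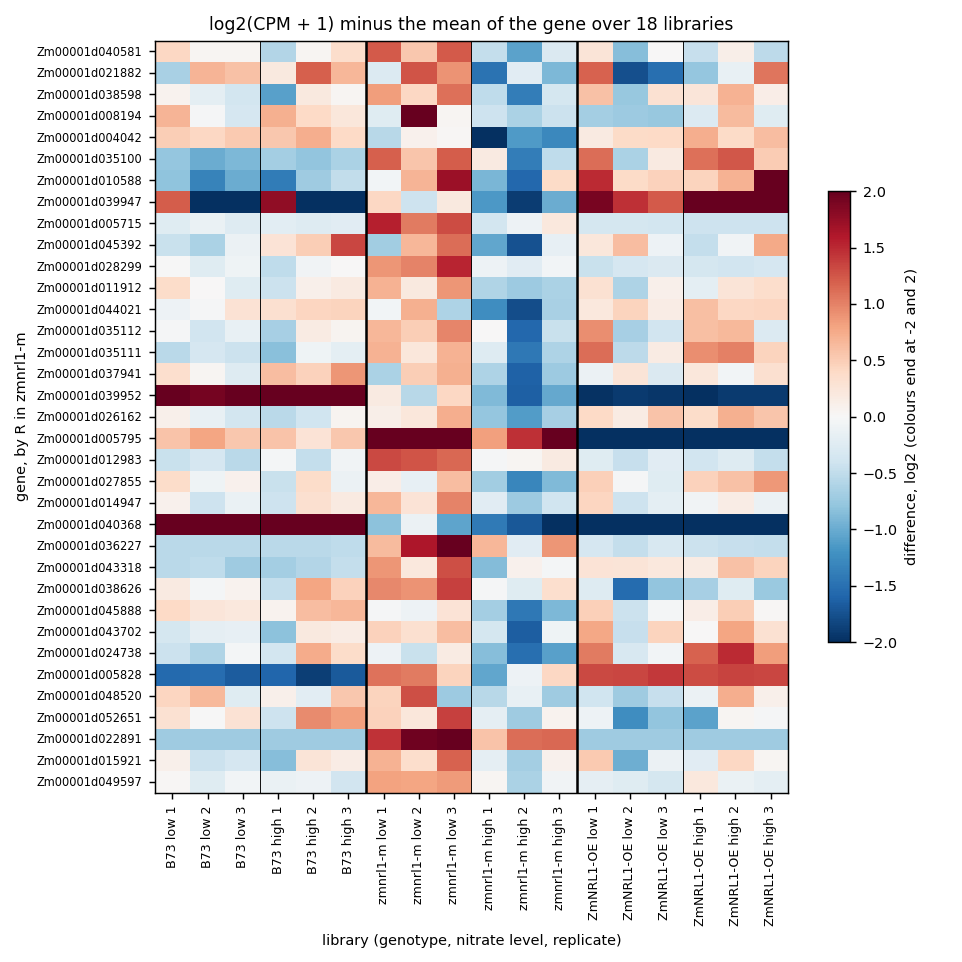
log2(CPM + 1) of the 35 genes (rows, by R in zmnrl1-m) in the 18 libraries (columns), as the difference from the mean of the gene over all libraries, with colours ending at -2 and 2. The low-nitrate libraries of zmnrl1-m are mostly red and its high-nitrate libraries mostly blue, and high-nitrate replicate 2 of zmnrl1-m lies below its group mean in 28 of the 35 genes.

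With 1 library left out at a time, 6 of the 35 genes met the rule in all 18 rounds. They are Zm00001d012983, Zm00001d028299 and Zm00001d039952, and 3 genes named after their values were seen, Zm00001d004042, Zm00001d035100 and Zm00001d005715. In ZmNRL1-OE, mean CPM at low and high nitrate was 0.10 and 0.10 in Zm00001d039952 and 0.04 and 0 in Zm00001d005715. In B73, Zm00001d005715 had 0.16 and 0.14 CPM. At such levels the added 1 CPM holds R near 0 whichever library is left out, so these limits were met in advance. Zm00001d004042 stood at 4.91, 8.28 and 7.84 CPM under low and 0.146, 2.96 and 2.56 CPM at high nitrate in zmnrl1-m, with no overlap. The lowest of its libraries in B73 and ZmNRL1-OE, at 8.90 CPM, was above every library of zmnrl1-m. At the limit of R = 1 stood Zm00001d049597 (R = 1.004, 91.6 ± 1.97 CPM under low and 45.2 ± 10.6 CPM at high nitrate in zmnrl1-m) and Zm00001d015921 (1.01, 71.4 ± 21.2 and 35.1 ± 9.26 CPM, SD, n = 3). Just outside were Zm00001d039788 (0.98) and Zm00001d049181 (0.98).

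The level of a gene averaged over both nitrate supplies is a contrast that the responses do not enter, and it was tested between genotypes. The rule does require a minimum level in zmnrl1-m and none elsewhere, so genes silent in B73 or ZmNRL1-OE could enter and genes silent in zmnrl1-m could not. Against B73, zmnrl1-m had a higher level in 11 of the 35 genes and a lower one in 7, or 51.4% called, where 51.6% of all genes tested were called (25.8% higher and 25.8% lower). Against ZmNRL1-OE it was higher in 12 and lower in 9, or 60.0% called, beside 60.0% of all genes (31.3% higher and 28.7% lower). ZmNRL1-OE was higher than B73 in 8 and lower in 8, or 45.7%, beside 45.8% of all genes (21.8% and 23.9%). The shares called among the 35 genes were thus near those of all genes in each of the 3 comparisons.

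By these tests 7 of the 35 genes had a higher level in zmnrl1-m than in both other genotypes (16.4% of all genes), 4 a lower one (16.8%), and 3 differed from the 2 genotypes in opposite directions (4.32%). The first count includes Zm00001d022891, Zm00001d036227 and Zm00001d005715, near silent in B73 and ZmNRL1-OE, which could enter only with a higher level in zmnrl1-m. In 11 genes the level was called against 1 genotype (36.4% of all genes), and in 10 against neither (26.0%). Those 10 include Zm00001d038598 and Zm00001d014947. Mean CPM in zmnrl1-m was above B73 at low nitrate in 31 of the 35 genes (46.8% of all genes) and below B73 at high nitrate in 24 (51.4%), and both held in 20 (15.2%), counts that the rule raises. Zm00001d026162, named after its values were seen, was the gene in which both held with no overlap of libraries. At low nitrate it was at 108.3, 118 and 166 CPM in zmnrl1-m and 107.9, 90.4 and 77.2 CPM in B73, and at high nitrate at 58.5, 45.8 and 63.2 CPM against 68.7, 75.45 and 104 CPM.

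Without overlap of libraries, zmnrl1-m was above B73 at low nitrate in 20 of the 35 genes (23.9% of all genes) and below B73 at high nitrate in 13 (26.7%). It was above ZmNRL1-OE at low nitrate in 13 (24.8%) and below ZmNRL1-OE at high nitrate in 19 (30.3%). In the opposite directions it was below B73 at low nitrate in 3 (28.6%), above B73 at high nitrate in 5 (26.2%), below ZmNRL1-OE at low nitrate in 3 (37.7%) and above ZmNRL1-OE at high nitrate in 8 (21.6%). These levels make up the responses used by the rule and are given as a description.

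**Figure D5:**
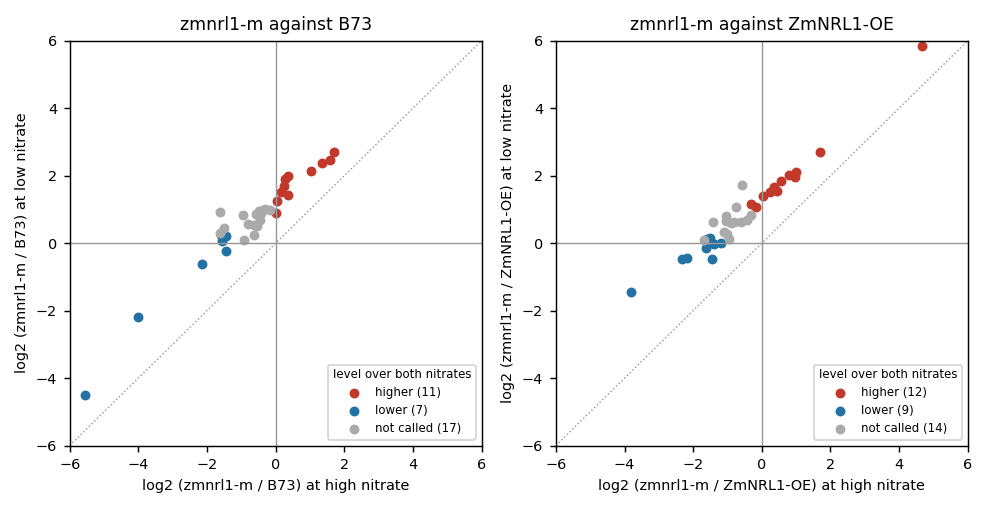
log2((mean CPM in zmnrl1-m + 1)/(mean CPM in B73 or ZmNRL1-OE + 1)) at high nitrate (horizontal) and low nitrate (vertical), 1 point a gene, coloured by the test of the level averaged over both nitrate supplies. All points lie above the dotted line of equal values, as the rule requires, and spread along it from genes lower in zmnrl1-m to genes higher there.

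Zm00001d022891 was counted in zmnrl1-m alone. It had 3.50, 5.31 and 7.64 CPM under low and 1.46, 2.56 and 2.65 CPM at high nitrate in zmnrl1-m, and 0 counts in the 12 libraries of B73 and ZmNRL1-OE. Against a floor of 3 counts over 6 libraries its level was at least 254-fold higher than in B73 and at least 268-fold higher than in ZmNRL1-OE (edgeR adjusted p = 1.37e-06 and 9.82e-07). The gene could meet the rule and pass the filter on low counts only through zmnrl1-m. The direction of these differences was therefore fixed by the choice, and their p-values support nothing. Its R of 0 in B73 and ZmNRL1-OE is that of a gene without counts. In B73, 3 of the 35 genes were under 0.5 CPM at both nitrate levels, and in ZmNRL1-OE 6 were, given as a description. The added 1 CPM holds R near 0 in these genes, so no flat response was measured there.

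Zm00001d005795 and Zm00001d005828 were higher in zmnrl1-m than in B73 and differed in ZmNRL1-OE. Zm00001d005795 stood at 64.0, 61.7 and 45.9 CPM under low and 11.9, 19.0 and 42.4 CPM at high nitrate in zmnrl1-m, and at 7.76 to 11.5 CPM in B73. In ZmNRL1-OE it had 2 counts in 6 libraries. The ratio of zmnrl1-m to ZmNRL1-OE was 4122 (95% exact binomial interval 1141 to 34042, counting error only), and that of B73 to ZmNRL1-OE 965 (267 to 7975). Both differences were called (edgeR adjusted p = 3.97e-12 and 3.62e-10).

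Zm00001d005828 was at 46.1, 44.6 and 29.3 CPM under low and 9.82, 19.7 and 28.5 CPM at high nitrate in zmnrl1-m. B73 had 6.42 ± 0.364 and 5.78 ± 0.726 CPM, and ZmNRL1-OE 55.6 ± 2.02 and 54.6 ± 0.824 CPM (SD, n = 3). The averaged level was higher than in B73 by 2.205 ± 0.19 in zmnrl1-m and by 3.10 ± 0.19 in ZmNRL1-OE on the log2 scale (SE, edgeR adjusted p = 3.42e-08 and 7.93e-10). In both genes the zmnrl1-m libraries at high nitrate differed among themselves by more than 2-fold, with replicate 1 the lowest and replicate 3 the highest.

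Zm00001d040368 and Zm00001d039952 had their highest level in B73. Zm00001d040368 was at 122, 83.2 and 92.8 CPM under low and 100.5, 95.7 and 97.3 CPM at high nitrate in B73. In zmnrl1-m it was at 2.82, 5.21 and 2.23 CPM under low and 1.53, 1.07 and 0.685 CPM at high nitrate. ZmNRL1-OE had 8 counts in 6 libraries, at most 0.0838 CPM. The averaged level differed from B73 by -5.63 ± 0.18 in zmnrl1-m and by -11.35 ± 0.29 in ZmNRL1-OE on the log2 scale (SE, edgeR adjusted p = 9.35e-14 and 7.24e-15). With 8 counts in ZmNRL1-OE the size of the second difference is uncertain. It ran from -11.57 to -10.99 with 1 library left out, and up to -4.30 over all alternatives. These include a fit on log2(FPKM + 1), in which the added 1 caps such a difference, so the wider range does not measure uncertainty from the counts.

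Zm00001d039952 was at 23.3, 14.99 and 19.8 CPM under low and 26.6, 39.6 and 23.2 CPM at high nitrate in B73. In zmnrl1-m it was at 3.82, 1.88 and 4.69 CPM and 1.31, 0.366 and 1.10 CPM, under every B73 library. The log2 difference in averaged level was -3.74 ± 0.25 (SE, edgeR adjusted p = 1.6e-09). Zm00001d040368 and Zm00001d039952 had R of 1.08 and 1.21 in zmnrl1-m from a level far under that of B73.

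Against ZmNRL1-OE the largest lower levels in zmnrl1-m were those of Zm00001d039947 and Zm00001d024738. The averaged log2 differences were -2.86 ± 0.92 and -1.65 ± 0.30 (SE, edgeR adjusted p = 0.0134 and 0.000159). Zm00001d010588 was higher in ZmNRL1-OE than in B73 by 2.99 ± 0.62 (SE, edgeR adjusted p = 0.000842). It had 0.592 ± 0.294 and 0.842 ± 0.553 CPM in B73, 4.95 ± 2.78 and 6.52 ± 4.64 CPM in ZmNRL1-OE and 5.33 ± 3.897 and 1.35 ± 1.67 CPM in zmnrl1-m at low and high nitrate (SD, n = 3), so its replicates differed widely in both lines.

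Gene length, which the rule did not use, was implied by the ratio of counts to FPKM. Its median was 1247 bases over the 35 genes and 1838 bases over genes with a group mean of at least 1 CPM. Of the 35 genes 6, or 17.1%, had an implied length under 500 bases, where 4.28% of those genes did. The shortest was that of Zm00001d021882, at 135 bases. These are descriptions, and the difference was not tested.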

How the data were processed

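The authors deposited a table of raw read counts per gene and a table of FPKM, values normalised for gene length and library size. The build B73 RefGen_v4, the counter featureCounts 2.0.1, the aligner HISAT2 2.2.1, Trim Galore 1.18 and bcl2fastq 2.19.1 are named by the submitters' processing notes. No source used here gives the strand setting or how multi-mapping reads were treated, so genes with near-identical copies, overlapping genes and antisense genes are uncertain. Reads of lines that differ from B73 were assigned to that genome.

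The genes, named-gene rule and tests were chosen with earlier results of these data known. Of the 35 genes, those with the highest R, the highest level, the lowest R in B73 and ZmNRL1-OE, the largest called level differences, the smallest p for the difference in response and R nearest the limit are named, 2 per direction. Tests used edgeR 4.0.16 (R 4.3.3; TMM scaling, filterByExpr with a minimum count of 10, 1 mean for each of 6 groups, 12 residual degrees of freedom, Benjamini-Hochberg adjustment), checked on simulated data. CPM are scaled by library totals, while fitted log2 fold changes are TMM-scaled. The SE printed with a fold change is its size divided by the square root of the F of its test. It was calculated back from the test and is unreliable for genes with few counts in a genotype. Alternatives used DESeq2 1.42.0 and limma 3.58.1.

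Same-numbered libraries of B73 deviated together at low and high nitrate (r = 0.41, 0.12 and 0.26 across genes, all over the limit of 0.1). In no other pair of groups were all 3 correlations over that limit. The main tests treated these B73 libraries as independent, so their p-values for level differences from B73 may be too small. The replicate block among the alternatives fits a shift shared by all genotypes, although this pattern was seen in B73 alone.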

Additional observations from a re-analysis of the deposited data

How the results depend on the processing

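The number of genes that met the rule was 23 with a pseudocount of 2, 19 with an upper limit of 0 in B73 and ZmNRL1-OE, 65 with a limit of 0.5, and 2 with a lower limit of 1.5 in zmnrl1-m. It was 44 with a pseudocount of 0.5, 38 with TMM-scaled CPM, 34 from FPKM and 38 from means of log2(CPM + 1), and 23 to 81 with 1 library or 1 replicate number left out. With 1 library left out, genes called ranged from 17 to 30 for the response of zmnrl1-m, 0 to 1 for B73, 0 to 3 for ZmNRL1-OE, 6 to 19 for the difference from B73 and 10 to 21 for that from ZmNRL1-OE. The shares of all genes called in the same rounds and alternatives are not given. In ZmNRL1-OE, 2 genes were called by DESeq2 and 1 without both B73 libraries numbered 1. With the replicate block 1 gene was called in B73 (Zm00001d045392, adjusted p = 0.0466, and 0.0466 to 0.283 over all alternatives), and 12 against 16 for the difference in response from B73. All counts of level differences stayed within 1.5 times under every alternative. Of 23 values of named genes, 18 kept their call in all alternatives that gave a value, and 0 changed direction. Zm00001d038598 lost its call in zmnrl1-m without high-nitrate replicate 2 there (adjusted p = 0.0508). Depth limits the genes at 0 to 20 counts in a genotype, whose fold sizes rest on counting error.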
